A study of Homo sapiens with 5 samples.

Results

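Replication-dependent histone genes encode the histones that package newly copied DNA, and most of them sit in a few clusters. Their transcription is tied to S phase, and their mRNAs end in a stem-loop in place of a poly(A) tail. In the nucleus the clusters are known to be held in histone locus bodies, where NPAT, a coactivator of histone genes, and the factors that process histone mRNA collect. HIST1 on chromosome 6 is the main cluster, and HIST2 and HIST3 on chromosome 1 are smaller.

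The clusters were described here as bins of 500 kb on hg19. These bins were chosen from the position of the genes and not from measured contacts, though with earlier results of these data known. HIST1 was taken as the 4 bins from 26 to 28.0 Mb of chromosome 6, HIST2 as the bin from 149.5 to 150.0 Mb of chromosome 1, and HIST3 as the bin from 228.5 to 229.0 Mb of chromosome 1. These 6 cluster bins were set beside 30 flanking bins, 5 on either side of each cluster, out of 6083 bins on the autosomes and chromosome X. A bin was left out of all expected values where it had less than 0.2 times the median contacts in any matrix. That limit kept 5630 bins, all 6 cluster bins and 28 of the 30 flanks; both bins left out lie before HIST2, from 148.0 to 149.0 Mb.

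The assay was in-solution Hi-C with the restriction enzyme HindIII, a method that ligates DNA fragments lying close together in crosslinked nuclei and counts the joined pairs. All cells were HL60, an established human promyelocytic leukemia line. They were untreated, given all-trans retinoic acid (ATRA), an inducer of granulocyte-like differentiation, or given the phorbol ester TPA, an inducer of macrophage-like differentiation; doses and times are not given in the labels. The untreated matrix merges 2 libraries with 10628045 contacts, the ATRA matrix holds 1 library with 9632300, and the TPA matrix merges 2 libraries with 10423501. Each condition is thus 1 measurement from its own libraries, library and treatment cannot be told apart, and no test was possible. Every interval given here is a 95% interval for counting error only, exact Poisson for a level and exact conditional binomial for a ratio.

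RefSeq (GRCh38.p14) lists 70 protein-coding histone genes of these clusters by their older HIST names. HIST1 has 55 of them, made up of 6 H1, 12 H2A, 15 H2B, 10 H3 and 12 H4 genes. Their order shows 3 blocks. The first runs from H2AC1 to H4C8 with 34 genes, the second from H2BC11 to H2AC12 with 5, and the third from H2BC13 to H2BC17 with 16. Between the first and second blocks lie 9 other protein-coding genes, and between the second and the third 5. HIST2 has 12 genes, 11 of them in 1 block from H2BC18 to H2AC21, and HIST3 has 3, namely H3-4, H2AC25 and H2BC26. These tables are of another build than the matrices, so they gave names and order only, and no gene was placed in an hg19 bin. Cluster and flank thus name bins by the chosen positions, and whether a flank holds histone genes was not checked.

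Promoters of the 3 clusters were searched for short motifs that had no part in choosing the bins. Of the 70 genes, 65 had promoter letters in RefSeq, and the 250 bases before each start were searched. The TATA box was searched as TATAAA on the gene's strand between 45 and 15 bases before the start, the CCAAT box as CCAAT or ATTGG, and the octamer as ATTTGCAT or ATGCAAAT, so the last 2 on both strands. The TATA box was found in 37 of 65 promoters (56.9%) against 2.63% of 27305 RefSeq promoters, the CCAAT box in 56 (86.2%) against 33.0%, and the octamer in 26 (40.0%) against 1.66%. By type, the CCAAT box was in every H1, H2A, H2B and H3 promoter with letters and in 3 of 12 H4 promoters (25.0%), below the share of all promoters. The octamer, a site of POU-domain factors known for H2B promoters, was present in 14 of 18 H2B and 11 of 16 H2A promoters, in 1 of 13 H3 promoters, and in 0 of 12 H4 and 0 of 6 H1 promoters. The TATA box was in 3 of 6 H1, 11 of 16 H2A, 8 of 18 H2B, 9 of 13 H3 and 6 of 12 H4 promoters. Promoters with a letter match are described here, and no binding was measured.

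Of each cluster, 1 H2B promoter is shown as an example, as the 120 bases before the start in the direction of transcription, 5′ to 3′, with every match to these motifs in capitals. The TATA box was found in 8 of 18 H2B promoters (44.4%), so most of them do not hold all 3 motifs as searched. H2BC11 of HIST1 lies at chr6:27132796-27132915 on the minus strand, H2BC21 of HIST2 at chr1:149886683-149886802 on the minus strand, and H2BC26 of HIST3 at chr1:228457983-228458102 on the plus strand, all on GRCh38.p14.
H2BC11: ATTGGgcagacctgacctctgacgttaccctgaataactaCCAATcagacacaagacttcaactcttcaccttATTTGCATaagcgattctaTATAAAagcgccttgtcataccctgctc
H2BC21: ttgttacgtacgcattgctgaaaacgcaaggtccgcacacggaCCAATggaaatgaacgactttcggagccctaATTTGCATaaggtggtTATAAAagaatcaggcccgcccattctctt
H2BC26: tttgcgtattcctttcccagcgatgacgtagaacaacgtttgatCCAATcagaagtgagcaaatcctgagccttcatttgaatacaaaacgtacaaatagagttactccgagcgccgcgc
H2BC11 and H2BC21 each hold CCAAT, the octamer and the TATA box in that order, while the HIST3 promoter shows CCAAT alone. None of the 3 HIST3 promoters held the octamer in the 250 bases searched.

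HIST1 and HIST2 each hold a pair of nearly or fully identical promoters, shown here since identical stretches cannot be told apart by reads that lie within them. Among 432 pairs of promoters of the same histone type, compared letter by letter over 250 bases without gaps, 2 pairs were at least 90% identical. H4C11 and H4C12 of HIST1 shared 98.0%, and H4C14 and H4C15 of HIST2 were identical at all 250 bases. Of 170 pairs between clusters, none reached 90%, and the highest was 37.2%; a gap between otherwise like promoters would lower these values. The last 120 bases of the identical pair are shown, H4C14 at chr1:149832537-149832656 on the plus strand and H4C15 at chr1:149861160-149861279 on the minus strand of GRCh38.p14; neither holds any of the 3 motifs as spelled above in this stretch.
H4C14: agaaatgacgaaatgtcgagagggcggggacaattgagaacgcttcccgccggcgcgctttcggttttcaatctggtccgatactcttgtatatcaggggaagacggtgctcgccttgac
H4C15: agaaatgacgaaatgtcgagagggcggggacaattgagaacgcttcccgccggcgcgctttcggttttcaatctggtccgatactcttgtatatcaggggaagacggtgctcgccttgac
The sources used here do not say whether read pairs that fit more than 1 copy were kept, and the part of such copies in coverage was not tested.

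The HIST2 bin was among the thinly covered ones. It held 1821 contacts in the untreated matrix, 1579 in ATRA and 1708 in TPA, which is 0.526 (0.502 to 0.551), 0.483 and 0.493 times the median bin. The second HIST1 bin, from 26.5 to 27.0 Mb, was low as well, at 0.582, 0.572 and 0.607 times the median. The other 3 HIST1 bins lay between 1.05 and 1.2 times the median in every matrix over all contacts. From contacts between chromosomes alone the first stood at 0.895, 0.887 and 0.991 times the median. By that measure the third stood at 1.07, 0.997 and 1.06, and the fourth at 0.909, 0.904 and 0.975. HIST3 was above the median over all contacts, with 4608 contacts in the untreated matrix (1.33 times), 3464 in ATRA (1.06 times) and 4294 in TPA (1.24 times), and its flanks ran from 1.13 to 1.73 times the median. From contacts between chromosomes alone HIST3 stood at 1.05, 0.835 and 0.962 times the median, and against the median bin of chromosome 1 at 1.17, 0.961 and 1.12, so in the treated matrices its side of the median turned with the measure, in TPA with the first only.

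Coverage of the clusters differed little between conditions. After scaling to total contacts, the HIST3 bin had 0.829 (0.793 to 0.867) times its untreated coverage in ATRA and 0.95 (0.911 to 0.991) times in TPA. It was the only cluster bin past a 1.2-fold difference, 1 of 6 in ATRA and 0 of 6 in TPA, where 9.91% of all 5630 bins in ATRA and 0.551% in TPA were past that fold. The 4 HIST1 bins stood between 0.984 and 1.03 times untreated in ATRA and between 1.01 and 1.09 times in TPA. HIST2 stood at 0.957 (0.894 to 1.02) and 0.956 (0.895 to 1.02) times. Among the flanks, 4 bins passed the fold in ATRA, all downward: the bins at 150.0 and 151.0 Mb beside HIST2, at 0.798 and 0.801 times, and those at 226 and 228.0 Mb beside HIST3, at 0.797 and 0.822 times.

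Bins of HIST1 shared about 2 times the expected number of contacts. The expected value takes the coverage of both bins, by matrix balancing, and the mean of all pairs at the same distance on chromosome 6. Over the 6 pairs of different HIST1 bins, the untreated matrix held 697 contacts, 1.93 (1.79 to 2.08) times expected. The ATRA matrix held 508, or 2.37 (2.17 to 2.58) times expected, and the TPA matrix 561, or 2.02 (1.85 to 2.19) times. The median 4-bin window of the genome stood at 0.946, 0.912 and 0.934 in the same order. Windows at or above 1.5 times expected made up 5.02% of 5443 windows in the untreated matrix, 9.48% in ATRA and 6.72% in TPA. As many contacts over expected as HIST1 had, or more, were found in 33 windows in the untreated matrix (0.606%), 39 in ATRA (0.717%) and 54 in TPA (0.992%), counts that include HIST1 itself. On chromosome 6 alone these were 3, 4 and 6 of 331 windows. Without any correction for coverage the excess was smaller, at 1.27, 1.48 and 1.39 times expected.

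**Figure D1:**
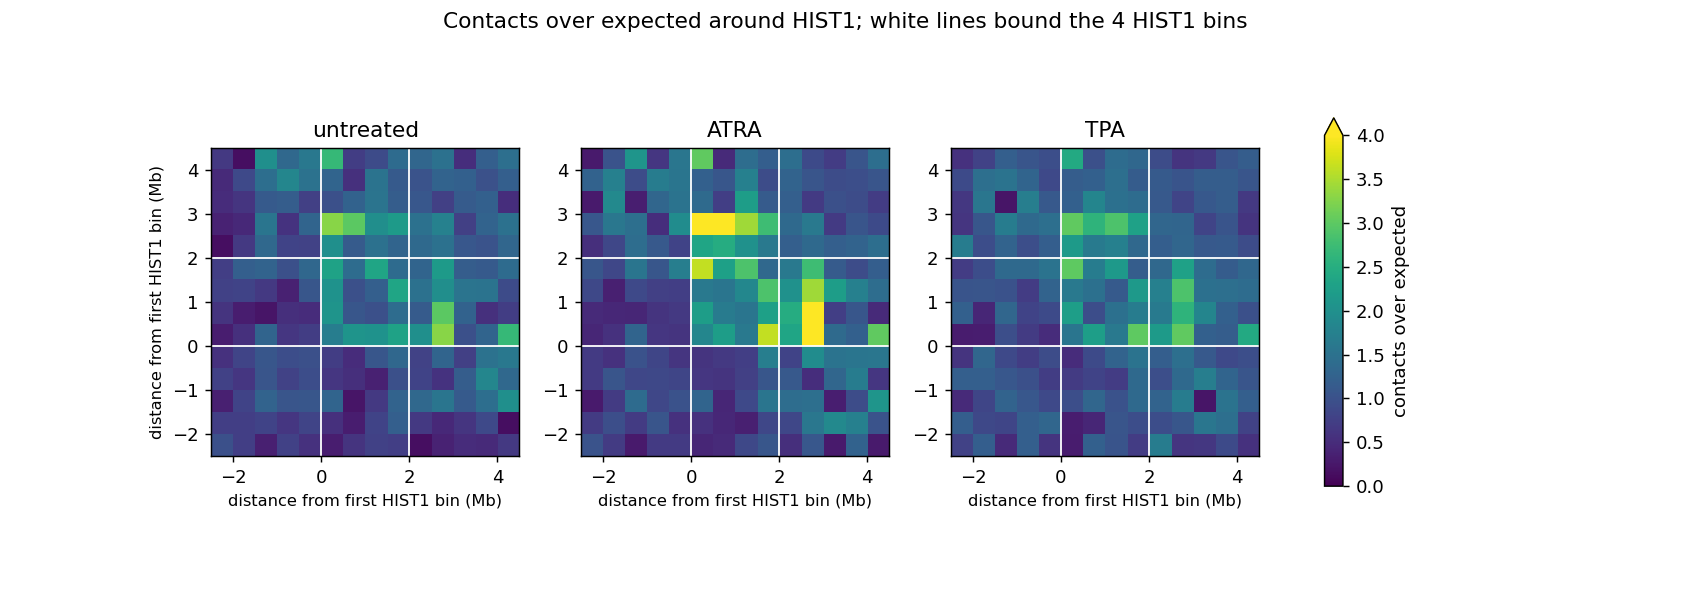
Contacts over expected for every pair of bins in the HIST1 region in each matrix, with both axes in Mb from the first HIST1 bin and white lines around the 4 HIST1 bins; colours end at 4. In the HIST1 square the pairs of different bins run from 0.974, for the second and the third bin without treatment, to 3.64, and the bin 2.5 to 3.0 Mb from the start reaches 4.68 with the first HIST1 bin in ATRA. Of the bins before HIST1, the nearest stands at 1.34 to 1.71 with the fourth HIST1 bin and at 0.503 to 0.730 with the first.

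The excess was uneven within HIST1. The outer bins, at 26 and 27.5 Mb, which are 1.5 Mb apart, shared 77 contacts in the untreated matrix, 77 in ATRA and 94 in TPA, which is 2.31 (1.82 to 2.89), 3.64 (2.87 to 4.55) and 3.00 (2.43 to 3.67) times expected. The third and the fourth bins, at 27.0 and 27.5 Mb, shared 277, 199 and 185 contacts, or 2.36, 2.88 and 2.15 times expected. The lowest pair was that of the second and the third bins, with 62 contacts (0.974 times expected, 0.747 to 1.25) in the untreated matrix, 59 (1.56 times) in ATRA and 67 (1.47 times) in TPA. The thinly covered second bin thus stood near expectation with its right neighbour in untreated cells, and at 2.07 times expected with the first bin. Inside single bins the first HIST1 bin was highest, at 1.69 (1.56 to 1.83) times expected in the summed matrix, and the second lowest, at 1.18 (0.983 to 1.40). In ATRA this order did not hold. There the third bin stood at 1.86, the first at 1.83, the second at 1.67 and the fourth lowest, at 1.35.

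Contacts within HIST1 per total were lower in both treated matrices, and over expected they were not. Scaled to the total of each matrix, the 6 pairs held 0.804 (0.716 to 0.903) times their untreated contacts in ATRA and 0.821 (0.733 to 0.919) times in TPA. The median window at this scale had 0.651 and 0.719 times its untreated contacts per total, so contacts at this scale were lower across the genome too. Over expected, the ratio to untreated was 1.22 (1.09 to 1.37) in ATRA and 1.04 (0.931 to 1.17) in TPA. The ATRA value is past 1.2-fold, as were 26.8% of all windows in either direction; 93.3% of windows had a ratio at or below it. In TPA 15.8% of windows passed that fold and HIST1 did not. Of single pairs, the outer bins stood at 1.58 (1.13 to 2.19) times untreated in ATRA and 1.30 (0.952 to 1.78) in TPA, and the second and the third bins at 1.60 (1.10 to 2.33) and 1.51 (1.05 to 2.17). The first and the third bins went the other way, at 0.797 (0.571 to 1.10) and 0.793 (0.588 to 1.06).

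HIST1 contacts were lopsided toward the bins that follow it. With the 5 bins after it, from 28.0 to 30.5 Mb, HIST1 made 827 contacts in the untreated matrix, 704 in ATRA and 811 in TPA, which is 1.59 (1.48 to 1.70), 2.08 (1.93 to 2.24) and 1.77 (1.65 to 1.89) times expected. With the 5 bins before it, it made 394, 278 and 386, or 0.773 (0.698 to 0.853), 0.786 (0.697 to 0.884) and 0.863 (0.779 to 0.954) times expected. The side after HIST1 thus exceeded the side before it by 2.05, 2.65 and 2.05 times, beyond counting error in each matrix. ATRA had 1.31 (1.18 to 1.45) times the untreated value on the side after HIST1 and 1.02 (0.870 to 1.19) on the side before.

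A single flank carried much of this. The bin from 28.5 to 29.0 Mb made 278, 268 and 280 contacts with the 4 HIST1 bins, or 2.36 (2.09 to 2.66), 3.42 (3.02 to 3.85) and 2.62 (2.33 to 2.95) times expected, the highest of all 10 flanks in each matrix. It was higher than the nearer bin from 28.0 to 28.5 Mb, which stood at 1.41, 1.90 and 1.60. Contact was lower again, at 1.27, 1.48 and 1.45, with the bin from 29.0 to 29.5 Mb. The first HIST1 bin, which is farthest from the 28.5 Mb bin, was 3.28 (2.49 to 4.25), 4.68 (3.55 to 6.05) and 3.02 (2.28 to 3.92) times expected with it, and the second bin 3.00, 4.11 and 2.61 times. The lowest flank in the summed matrix was the bin from 24.0 to 24.5 Mb, at 0.650 (0.531 to 0.787). The last flank, from 30.0 to 30.5 Mb, where class I MHC genes lie, was at 2.68 (1.80 to 3.85), 3.02 and 2.43 times expected with the first HIST1 bin and between 0.472 and 1.42 with the other 3.

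The first HIST1 bin had fewer contacts than expected with the flank just before it. The bin from 25.5 to 26 Mb and the first HIST1 bin are neighbours, yet they shared 85 contacts in the untreated matrix, 45 in ATRA and 43 in TPA, only 0.730 (0.583 to 0.903), 0.601 and 0.503 times expected. The fourth HIST1 bin, at a distance of 2.0 Mb, was at 1.34 (0.922 to 1.88), 1.71 and 1.53 with that same flank. The farther bin of HIST1 thus had more contact over expected with this flank than the nearer one. With the flank at 24.5 Mb the first bin was not low, at 1.29 (0.949 to 1.72), 1.29 and 0.966 times expected.

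The chromosome 1 clusters, too, had more contact over expected with the side of higher coordinates, which is only the direction of chromosome numbering. How many other bins or windows are as lopsided was not counted, for HIST1 or for these clusters. Whether it is a trait of histone clusters was thus not tested. HIST2 made 152, 75 and 96 contacts with the bin after it, at 150.0 Mb, or 2.54 (2.16 to 2.98), 2.43 and 2.63 times expected. With the bin before it, at 149.0 Mb, it made 5, 6 and 4, or 0.139 (0.0451 to 0.324), 0.277 and 0.167 times. Both neighbours are 1 bin away, and the first exceeded the second in every matrix. Over all kept flanks, the side after HIST2 exceeded the side before by 8.65 (4.62 to 18.3), 3.20 (1.90 to 5.78) and 5.05 (2.74 to 10.3) times. The 2 bins left out, at 148.0 and 148.5 Mb, had at most 0.0373 and 0.105 times the median coverage, and their part in this was not tested.

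HIST3 was lopsided to a smaller degree. It shared 320, 188 and 264 contacts with the bin after it, at 229.0 Mb, or 1.61 (1.44 to 1.80), 1.90 (1.64 to 2.19) and 1.91 (1.68 to 2.15) times expected. With the bin before it, at 228.0 Mb, it shared 185, 80 and 130, or 1.02, 0.974 and 1.06 times. Farther back, contacts with the bin at 226 Mb were again above expectation, at 2.04 (1.52 to 2.67), 2.25 (1.54 to 3.17) and 1.39 (0.942 to 1.97). The side after HIST3 exceeded the side before by 1.28 (1.12 to 1.46), 1.50 and 1.49 times.

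**Figure D2:**
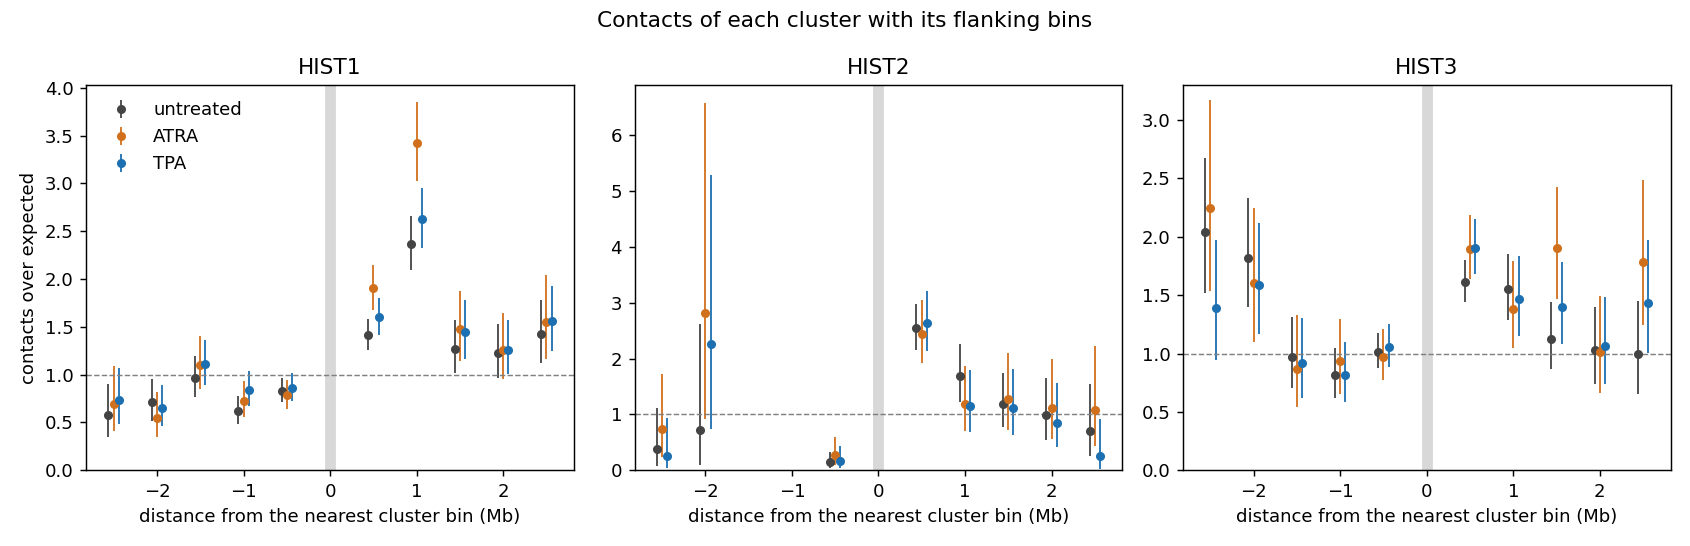
Contacts over expected of each cluster with each kept flank in the 3 matrices, against distance in Mb from the nearest cluster bin (grey bar); bars are 95% counting intervals and the dashed line marks 1. HIST1 peaks at the second bin after it, up to 3.42 in ATRA, and HIST2 drops to between 0.139 and 0.277 at the bin before it.

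Between HIST1 and HIST2 few contacts were seen, but more over expected than between their flanks. The 4 HIST1 bins and the HIST2 bin shared 3 contacts in the untreated matrix, 2 in ATRA and 3 in TPA. Between chromosomes the expected value comes from the coverage of both bins alone, and it was 0.656, 0.654 and 0.688 contacts. In the summed matrices the 8 contacts were 3.99 (1.72 to 7.87) times expected. Flanks of HIST1 with flanks of HIST2 shared 97 contacts, 1.07 (0.871 to 1.31) times expected, HIST1 with HIST2 flanks 42 (1.37, 0.988 to 1.85), and HIST1 flanks with HIST2 11 (1.86, 0.930 to 3.33). The cluster pair exceeded the flank by flank level by 3.72 (1.56 to 7.62) times and all pairs that hold a flank by 3.38 (1.43 to 6.83) times. Against HIST1 flanks with HIST2 alone the ratio was 2.14 (0.749 to 5.85), an interval that includes 1.

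The HIST1 and HIST2 value was high among like combinations of these chromosomes. Of 148619 combinations of a 4-bin window of chromosome 6 with a bin of chromosome 1, 16.5% had at least 1.5 times the expected contacts, and 0.0155% reached the HIST1 and HIST2 value. It was the highest of the 331 windows of chromosome 6 with the HIST2 bin, and the highest of the 449 bins of chromosome 1 with HIST1. These ranks are of contacts over expected, and by count alone the HIST2 bin was not the highest with HIST1. HIST1 also shared 8 contacts with the flank at 150.0 Mb and 9 with that at 152.0 Mb. Expected contacts there were 3.58 and 4.78, against 2.00 for the thinly covered HIST2 bin. By single bins, the first HIST1 bin gave 4 of the 8 contacts (0 untreated, 1 ATRA, 3 TPA), the third gave 3, the fourth 1 and the second 0. Single flanks of HIST1 reached such counts too: the flank at 24.5 Mb shared 5 contacts with the HIST2 bin, 8.09 times expected, against 7.50 times for the first HIST1 bin, and the flank at 29.0 Mb shared 3, or 5.87 times. With so few contacts no difference between conditions was detectable, and 1 matrix alone has an interval from 0.942 to 13.4 in untreated cells. Histone genes of HIST1 and HIST2 are close copies in their coding parts, and the part of read placement between them was not tested.

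HIST1 and HIST3 showed no such level. They shared 2 contacts in the untreated matrix, 0 in ATRA and 3 in TPA, a sum of 5 or 1.19 (0.388 to 2.79) times expected. The 0 contacts in ATRA allow up to 3.04 times expected by the exact interval. Flank by flank pairs held 162 contacts, 1.02 (0.869 to 1.19) times expected, and the ratio of the cluster pair to all pairs with a flank was 1.21 (0.388 to 2.86). The interval of that ratio includes both 1 and an excess of up to 2.86 times. Of the chromosome 1 bins, 32.5% were as high with HIST1 or higher.

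HIST2 and HIST3 lie 79.0 Mb apart on chromosome 1 and shared 3, 1 and 0 contacts. The sum of 4 was 2.10 (0.571 to 5.37) times expected for that distance. Pairs with a flank were themselves at 1.91 (1.77 to 2.05), so the ratio to them was 1.10 (0.298 to 2.82).

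**Figure D3:**
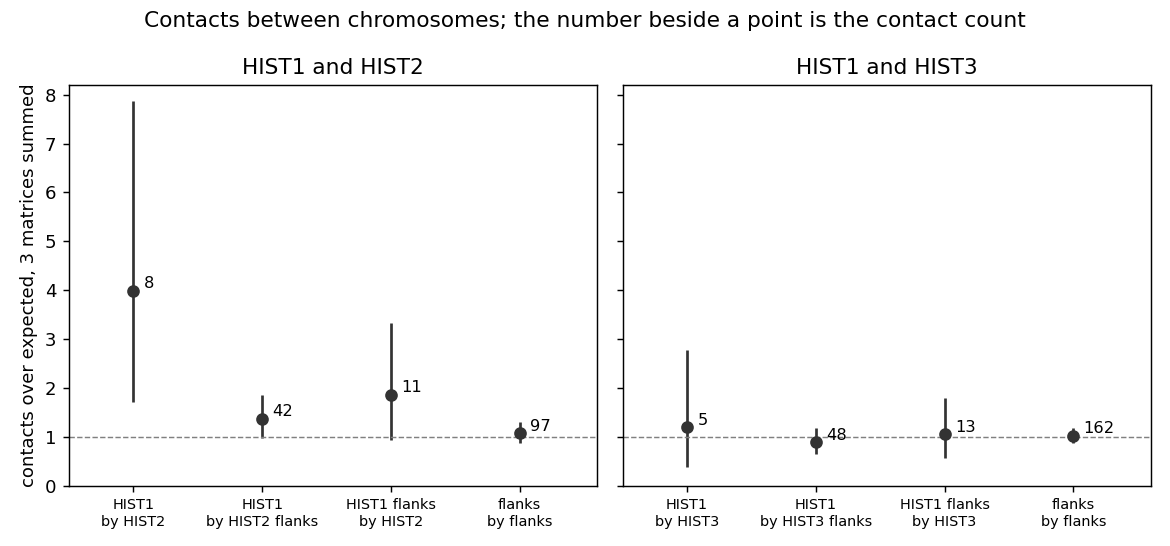
Contacts over expected between HIST1 and the chromosome 1 clusters in the 3 matrices summed, for cluster by cluster, cluster by flank and flank by flank pairs; bars are 95% counting intervals and the number beside each point is its contact count. HIST1 with HIST2 stands at 3.99 on 8 contacts, and HIST1 with HIST3 at 1.19 on 5.

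The cluster bins lay on different sides of the compartment axis. The compartment score is the leading eigenvector of the balanced contact pattern of a chromosome, in SD, with its positive side (A, in general the active, gene-rich compartment) set by contact with chromosome 19. The first HIST1 bin scored 1.27 in the untreated matrix, 1.07 in ATRA and 1.34 in TPA. The second scored 0.11, -0.38 and -0.16, and the third -0.17, -1.01 and -0.70. The fourth was on the positive side in untreated cells, at 0.65, and at -0.38 and -0.21 in the treated ones. HIST2 was steady at 1.07, 1.09 and 1.16. HIST3 scored 1.05 without treatment, 0.26 in ATRA and 0.43 in TPA.

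No cluster bin switched side in either treated matrix by the rule used, from beyond 0.5 on one side to beyond 0.5 on the other; 0.586% of all bins did in ATRA and 1.90% in TPA. Lower scores were common among the members. In ATRA 3 of 6 cluster bins were lower by at least 0.5, namely the third and the fourth HIST1 bins (by 0.85 and 1.03) and HIST3 (by 0.79), against 12.0% of all bins. In TPA the same 3 bins were lower, by 0.53, 0.86 and 0.61, against 18.0% of all bins. These HIST1 differences turned direction without balancing: the third bin then scored 1.05, 3.01 and 2.55 in untreated, ATRA and TPA. The fourth scored -0.06, 1.86 and 1.88, so treated scores were higher. That score ordered the region otherwise even in untreated cells. The flank at 24.0 Mb stood at 1.35 against -0.89 with balancing, and the flank at 30.0 Mb at -0.79 against 1.61. From contacts between chromosomes the third bin scored -0.26, -0.78 and -0.61, and the fourth 0.00, -0.52 and -0.12. Per arm they scored -0.56, -1.25 and -0.76, and 0.32, -0.33 and -0.12, so treated scores were lower by both measures. For HIST3 the scores without balancing were 0.81, 0.11 and 0.31, lower in both treated matrices. Neighbouring bins share their contacts, so these bins are not independent of each other, and both comparisons share the untreated matrix.

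Many flanks were lower too. Over all kept flanks, 12 of 28 in ATRA and 15 of 28 in TPA were lower by at least 0.5, against 12.0% and 18.0% of all bins. In the same order these were 3 and 6 of 10 beside HIST1, 1 and 2 of 8 beside HIST2, and 8 and 7 of 10 beside HIST3. Of the HIST3 flanks, the bin at 227.5 Mb had the lowest scores, at -0.14 without treatment, -1.52 in ATRA and -1.19 in TPA. The one at 229.0 Mb stayed between 1.48 and 1.56. Beside HIST1, the flanks at 28.0 and 28.5 Mb scored 0.99 and 1.01 in untreated cells, -0.11 and -0.12 in ATRA, and -0.09 and 0.18 in TPA. The bins lower by at least 0.5 ran without a break from the third HIST1 bin to 29.5 Mb in ATRA and to 30.0 Mb in TPA, past the cluster bins. Beside HIST2, the 4 bins from 150.0 to 152.0 Mb scored between 1.32 and 1.93 in all matrices, and the flank at 152.0 Mb scored 0.97 without treatment and -0.70 in TPA. Only 2 flanks switched by the rule above, that one in TPA and the bin at 226.5 Mb in ATRA.

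**Figure D4:**
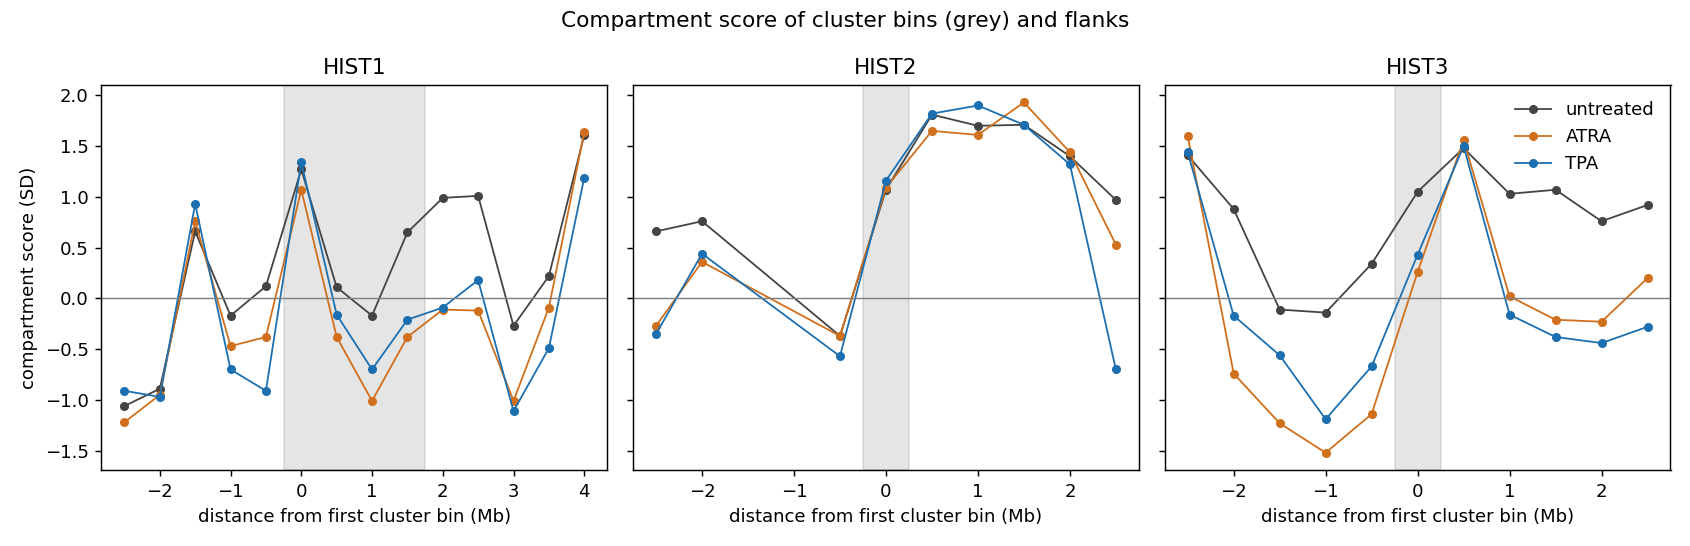
Compartment score in SD of the cluster bins (grey band) and their flanks in the 3 matrices, against distance in Mb from the first cluster bin; the line before HIST2 crosses the 2 bins left out for low coverage. Treated scores lie under the untreated ones at the third and the fourth HIST1 bins and at HIST3, and the 3 lines meet at HIST2, between 1.07 and 1.16.

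Contacts over long distance went with the compartment score in part only. All bins of the same chromosome at least 5 Mb away were parted by their score in the summed matrix, beyond 0.5 on the A side or beyond 0.5 on the B side; the score comes from the same contacts and is no independent support. HIST1 made 1152 contacts with A bins and 763 with B bins in the untreated matrix, or 1.19 (1.12 to 1.26) and 0.936 (0.871 to 1.00) times expected. In ATRA it made 764 and 838, or 0.991 and 1.15 times, and in TPA 1191 and 1110, or 1.08 and 1.18 times. The A over B ratio of HIST1 was therefore 1.27 (1.16 to 1.40) without treatment, 0.861 (0.780 to 0.951) in ATRA and 0.916 (0.843 to 0.995) in TPA, and it lay on opposite sides of 1.

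Within HIST1 the order of the bins was the same in each matrix. The first bin favoured A, at 2.13, 1.64 and 1.67, and the third favoured B, at 0.723, 0.492 and 0.546. The fourth bin had the largest difference, from 1.40 (1.16 to 1.69) without treatment to 0.759 (0.624 to 0.922) in ATRA and 0.787 (0.670 to 0.923) in TPA. HIST3 stood at 2.15 (1.84 to 2.50) without treatment, 1.30 (1.09 to 1.54) in ATRA and 1.21 (1.05 to 1.40) in TPA. HIST2 favoured A most, at 3.16 (2.41 to 4.18), 2.84 (2.13 to 3.82) and 3.07 (2.37 to 4.02), and its 3 intervals overlap widely. A ratio lower past 1.2-fold was found in 5 of 6 cluster bins in both ATRA and TPA, all but HIST2, where 23.4% of all bins in ATRA and 32.5% in TPA were that much lower. The flanks shared this, with 17 of 28 in ATRA and 20 of 28 in TPA, among them 9 of 10 HIST3 flanks in both. By compartment score, with its own limit of 0.5, 3 of 6 cluster bins were lower. The first HIST1 bin was lower in ratio in both treated matrices, while it scored 1.27 without treatment, 1.07 in ATRA and 1.34 in TPA.

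**Figure D5:**
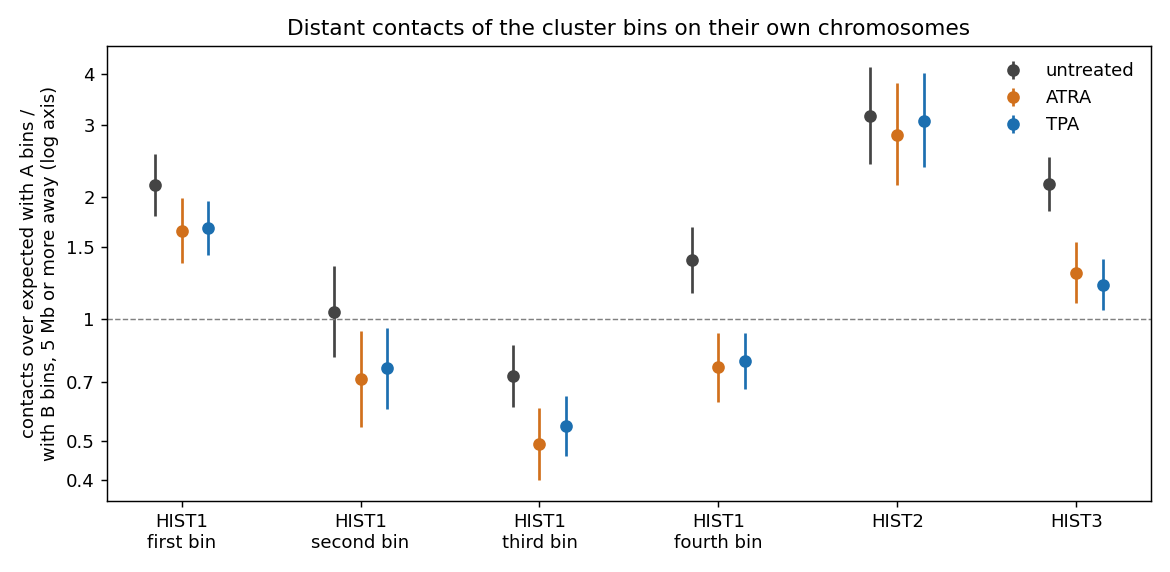
Ratio of contacts over expected with A bins to that with B bins, at least 5 Mb away on the same chromosome, for each cluster bin and matrix, on a log axis with 95% counting intervals and a dashed line at 1. HIST3 is at 2.15 in untreated cells and at 1.30 and 1.21 in treated ones, and HIST2 stays between 2.84 and 3.16.

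With other chromosomes, HIST1 ranged from 0.819 to 1.11 times the level set by coverage. In the summed matrix the highest values over 22 chromosomes were with chromosomes X (1.11, 1.03 to 1.21), 8 (1.08), 11 (1.08), 4 (1.06) and 7 (1.05), and the lowest with chromosomes 14 (0.819, 0.758 to 0.884), 22 (0.837), 16 (0.876), 21 (0.884) and 20 (0.939). Its flanks were alike, at 1.10 for chromosome X and 0.879 for chromosome 14. The cluster over flank ratio was 1.02 (0.926 to 1.11) for chromosome X and 0.932 (0.853 to 1.02) for chromosome 14, and both intervals include 1. The intervals that exclude 1 were those of chromosome 11, at 1.08 (1.01 to 1.15), and chromosome 2, at 0.939 (0.892 to 0.989). Against chromosome lengths in place of coverage, HIST1 with chromosome X stood at 0.466, 0.501 and 0.542, so its lead turned with the expectation used.

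Single partner bins of HIST1 outside chromosomes 1 and 6 reached 20 contacts in 7 cases, and all 7 lay between 126 and 131.0 Mb of chromosome 8. These bins carry 5.42 to 15.6 times the median contacts in the summed matrix, and a limit set on counts favours bins of high coverage. Over the level set by coverage they stood between 1.25 and 1.98 times. The highest over expected was the bin at 126 Mb with 92 contacts, 1.98 (1.59 to 2.42) times expected, and HIST1 flanks were at 1.61 with it. Without the 7 bins, HIST1 with chromosome 8 was at 0.972 (0.919 to 1.03).

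HIST2 was highest with chromosomes 16 (1.45, 1.23 to 1.69), 19 (1.39, 1.12 to 1.70) and 17 (1.26, 1.05 to 1.49) and lowest with chromosome 18 (0.702, 0.542 to 0.895). With chromosome 19 its flanks were at 1.23, and the ratio to them was 1.13 (0.902 to 1.39). The lead of chromosome 16 rested on 2 bins, at 70.5 and 71.0 Mb, which were singled out after their values were seen. HIST2 made 8, 2 and 4 contacts with the first, and 13, 5 and 5 with the second, which summed to 14 (7.65 to 23.5) and 18.5 (11.7 to 27.7) times expected. HIST2 flanks were high with them too, at 8.30 and 11.1, and up to 43.7 for the flank at 147.5 Mb. Beyond the flanks, the bin at 146.5 Mb of chromosome 1 shared 88 contacts with 1 of the chromosome 16 bins and 68 with the other. These were 41.0 and 39.5 times expected, so the high contact was shared by bins outside the cluster bin. The bins at 70.5 and 71.0 Mb had 1.56 and 1.80 times the median coverage in the summed matrix. The part of read placement in these contacts was not tested. Without these 2 bins HIST2 was at 1.14 (0.951 to 1.36) with chromosome 16.

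HIST3 was highest with chromosome 13 (1.15, 1.03 to 1.29), where its flanks were at 1.12, and lowest with chromosome 22 (0.711, 0.561 to 0.888), where they were at 0.814. With chromosome 19 it stood at 0.981, above flanks at 0.796, a ratio of 1.23 (1.03 to 1.47). For each cluster 22 chromosomes were compared, and single intervals that exclude 1 are to be read against that number.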

How the data were processed

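Hi-C contacts of HL60 cells were analysed from 3 matrices of raw contact counts that the authors deposited, with 500 kb bins and no normalization, per the file headers and the values. Bowtie, HOMER 4.7 and hg19 are named per the submitters' processing notes, and HiCUP as the filter per the series' design text; the sources used here do not give settings for reads that fit several places. The ATRA matrix is 1 library and the others each merge 2, per the labels, so there is no replicate spread. Every cell for a bin with itself was even and was halved. The untreated matrix had 1 cell unlike its mirror cell, so only cells above the diagonal were read.

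Each matrix was balanced in 60 iterations over bins with at least 0.2 times the median coverage. Expected contacts within a chromosome were the product of both bins' biases and the mean at that distance, and between chromosomes the product of biases from contacts between chromosomes. The compartment score was the leading eigenvector of the correlated contacts over expected. The scripts were tested on simulated data with planted windows; balancing understated a planted excess, so a correction by contacts between chromosomes was added after seeing the data. Python 3.11.15, numpy 2.4.6, scipy 1.17.1 and matplotlib 3.10.9 were used.

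The cluster bins, flanks and lists were chosen with earlier results of these data known. All 6 cluster bins are named, with flanks, chromosomes and partner bins that were highest or lowest in a measure; flanks shown for contrast were chosen after their values were seen. Partner bins needed 20 contacts in the summed matrix. A planned list of histone gene regulators was not analysed here, since no hg19 annotation was used. Promoter letters came from RefSeq on GRCh38.p14. Intervals cover counting error only, since read pairs need not be independent molecules.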

Additional observations from a re-analysis of the deposited data

How the results depend on the processing

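Recomputed under the alternatives, 55 of 102 values moved by less than counting error or stayed on the same side of the limit, though some of these turned direction. Without the second HIST1 bin, TPA over untreated within HIST1 went from 1.04 to 0.955, and HIST1 with HIST3 from 1.19 to 0.852 times expected and from 1.21 to 0.854 over flanks. Without correction for coverage HIST2 with HIST3 went from 1.10 to 0.532 over flanks. From contacts between chromosomes the score of HIST1 in untreated went from 0.47 to -0.08 and that of HIST3 in ATRA from 0.26 to -0.29, and per arm that of HIST1 in TPA from 0.07 to -0.10. Contacts between clusters rest on 4 to 8 contacts. In what follows, values are for untreated, ATRA and TPA in that order, and no cause of a difference was tested. Contacts within HIST1 were 1.27, 1.48 and 1.39 times expected without correction for coverage, 1.68, 2.03 and 1.76 with the distance mean of all chromosomes, and 2.39, 2.98 and 2.52 with the coverage correction from contacts between chromosomes, which was chosen after seeing the data. Without the second HIST1 bin they were 2.26 and 2.66 in untreated and ATRA. Contacts with the 5 bins before HIST1 were 0.612, 0.620 and 0.689 without correction, and with the added correction 0.887 in untreated and 1.01 in TPA, above expectation. Those with the 5 bins after were 1.28, 1.57 and 1.45, and 1.89, 2.52 and 2.13. The mean HIST1 compartment score without balancing was 0.28, 2.08 and 1.76, against 0.47, -0.17 and 0.07 with it, so treated scores were then higher and not lower. Flanks of HIST1 changed sign without balancing too, that at 24.0 Mb from -0.89 to 1.35 in untreated. HIST3 scored 0.48 in untreated from contacts between chromosomes and 0.58 in ATRA per arm. Coverage from contacts between chromosomes was 0.860, 0.830 and 0.891 times the median for HIST1, 0.482, 0.450 and 0.462 for HIST2, and 1.05, 0.835 and 0.962 for HIST3. Against the median bin of the same chromosome it was 0.861, 0.829 and 0.890, 0.461, 0.438 and 0.446, and 1.17, 0.961 and 1.12. Contacts of HIST1 with chromosome X, against chromosome lengths, were 0.466, 0.501 and 0.542. No paired analysis was possible because each condition is 1 matrix with its libraries merged, and for the same reason no library could be left out.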
